A study of Mus musculus with 6 samples.

Results

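The 34 genes described here encode the enzymes and regulators of cholesterol and fatty acid synthesis, and their transcripts were measured in microglia, the macrophages that live in brain tissue. The members were taken by gene symbol from a fixed list, and all 34 were found among the 24956 gene rows of the deposited count table. Microglia of 3XTg-AD mice aged 7 months were isolated by flow cytometry, and their RNA was sequenced in bulk. Both groups carried the 3XTg-AD background, an Alzheimer's disease model whose human transgenes are driven in neurons. The isotype group (3 libraries) received an isotype control antibody, and the anti-NK1.1 group (3 libraries) received an antibody that depletes natural killer (NK) cells through their surface receptor NK1.1. Each antibody was given at 25 µg every 4 days for 4 weeks. The comparison asks which microglial transcripts differ once NK cells have been removed. The labels do not say whether a library came from 1 mouse or a pool, so p-values measure the spread between these libraries, which may be technical.

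Cholesterol is built from acetyl-CoA through the mevalonate steps to squalene, which is closed to a sterol ring and trimmed to cholesterol. The transcription factors SREBP1 and SREBP2, encoded by Srebf1 and Srebf2, switch these genes on. SREBP precursors sit in the endoplasmic reticulum bound to the escort protein SCAP, and INSIG proteins hold that complex there when sterols are plentiful. Fatty acids are made from cytosolic acetyl-CoA by ACLY, ACC1 and FASN, then desaturated, elongated and activated. In the brain, astrocytes and myelinating oligodendrocytes make most of the cholesterol, while microglia handle much lipid taken up from debris.

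Counts over genes totalled 26893620 to 36098252 per library. Levels are given as counts per 1000000 counts (CPM) after scaling by the TMM method (trimmed mean of M values), and 3 counts, the floor used here, equal 0.0831 to 0.112 CPM before that scaling. All 10 microglial markers examined, among them P2ry12 and Tmem119, were present in every library, with a summed level of 31332 to 35845 CPM with isotype and 27306 to 35979 CPM with anti-NK1.1. Of 9 tested NK cell markers 6 lay lower. Ncr1, too scarce to be tested, had 128, 53 and 0 counts in isotype libraries and 0 in each anti-NK1.1 library. The summed level of all 10 NK cell markers was 91.1 to 133 CPM with isotype and 42.6 to 80.1 CPM with anti-NK1.1. Transcripts of other cells were present too. Of 14 neutrophil and monocyte markers 14 had a fitted log2 change below 0, and none was at 0 in a whole group. They summed to 75199 to 102890 CPM with isotype and to 32695, 33427 and 142550 CPM in anti-NK1.1 libraries 1 to 3. In bulk RNA, fewer cells of a type and less RNA per cell cannot be told apart.

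No member passed the test for a difference between the groups. With edgeR's quasi-likelihood test, 0 of 34 members had an adjusted p under 0.05 (0% of the 14520 tested genes did), and the smallest adjusted p of a member was 0.727. DESeq2 called 0 members as well, with a smallest adjusted p of 0.164 (0.825% of the genes it tested were called). At an unadjusted p under 0.05 edgeR gave 1 member, Fasn (background 6.54%). Groups did not overlap for 4 members, or 11.8%, against a background of 15.3% of all tested genes. Those were Acat2 and Msmo1, higher in every anti-NK1.1 library (background for higher genes 7.73%), and Scap and Fasn, lower in every one (background for lower genes 7.59%). The median log2 change of the 34 members was 0.06, with 21 higher and 13 lower, and the median of all tested genes was 0.01, with 49.1% of genes lower. Summed over the 34 members, the level was 1026 ± 88.6 CPM with isotype and 1013 ± 119 CPM with anti-NK1.1 (SD over 3 libraries each). The SE of a member's log2 change ranged from 0.22 to 1.45, with a median of 0.42, so intervals were wide for the scarce members.

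**Figure D1:**
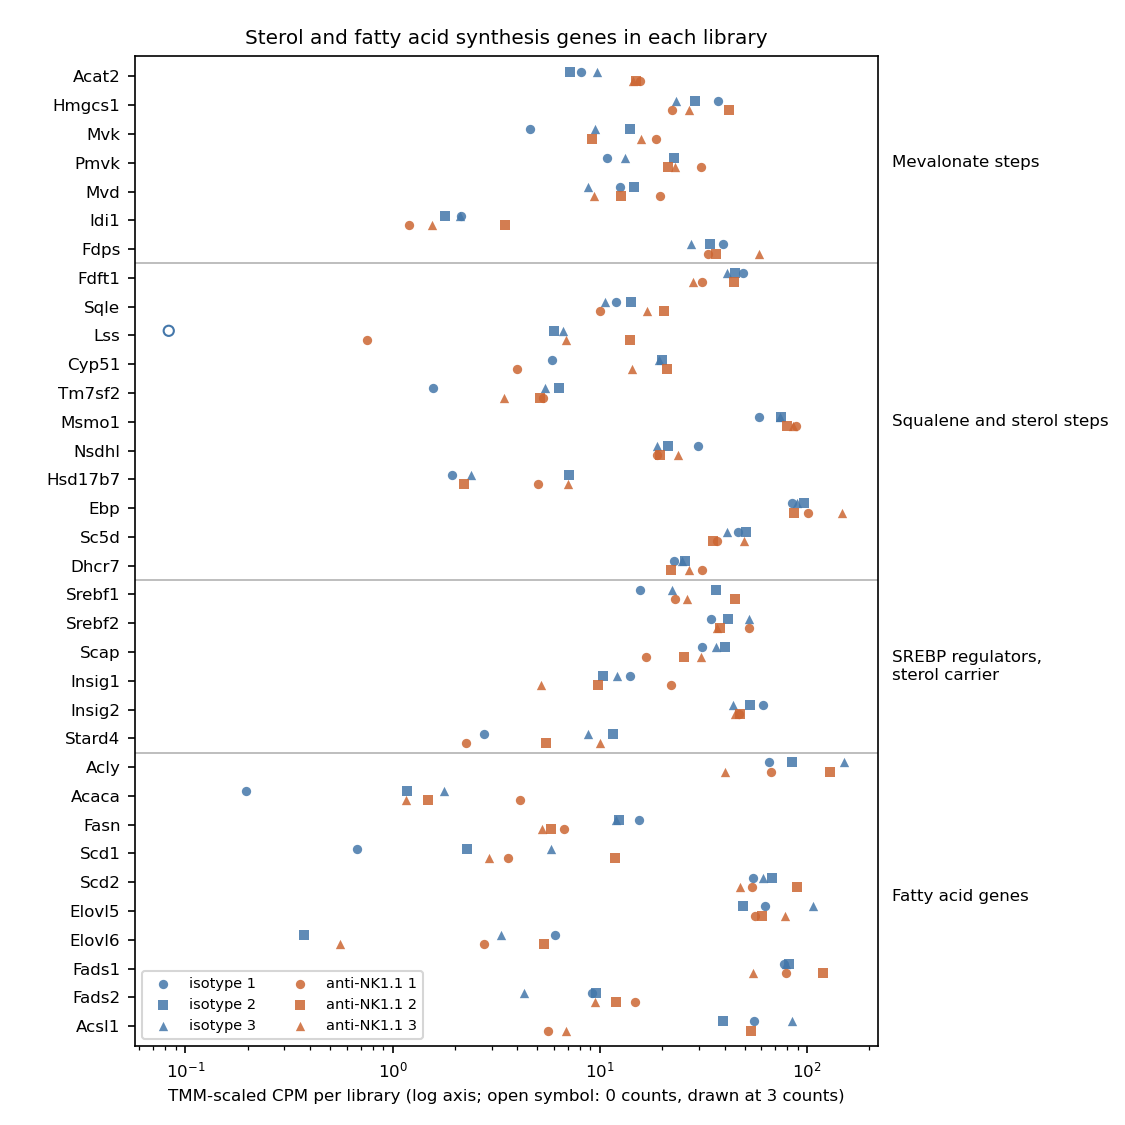
TMM-scaled CPM of each member (rows, by role) in each of the 6 libraries on a log axis; blue symbols are isotype and orange symbols anti-NK1.1 libraries, 1 symbol shape per replicate number. Acat2, Msmo1, Scap and Fasn are the rows where blue and orange do not overlap, and the open symbol marks Lss in isotype library 1, which had 0 counts.

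**Figure D2:**
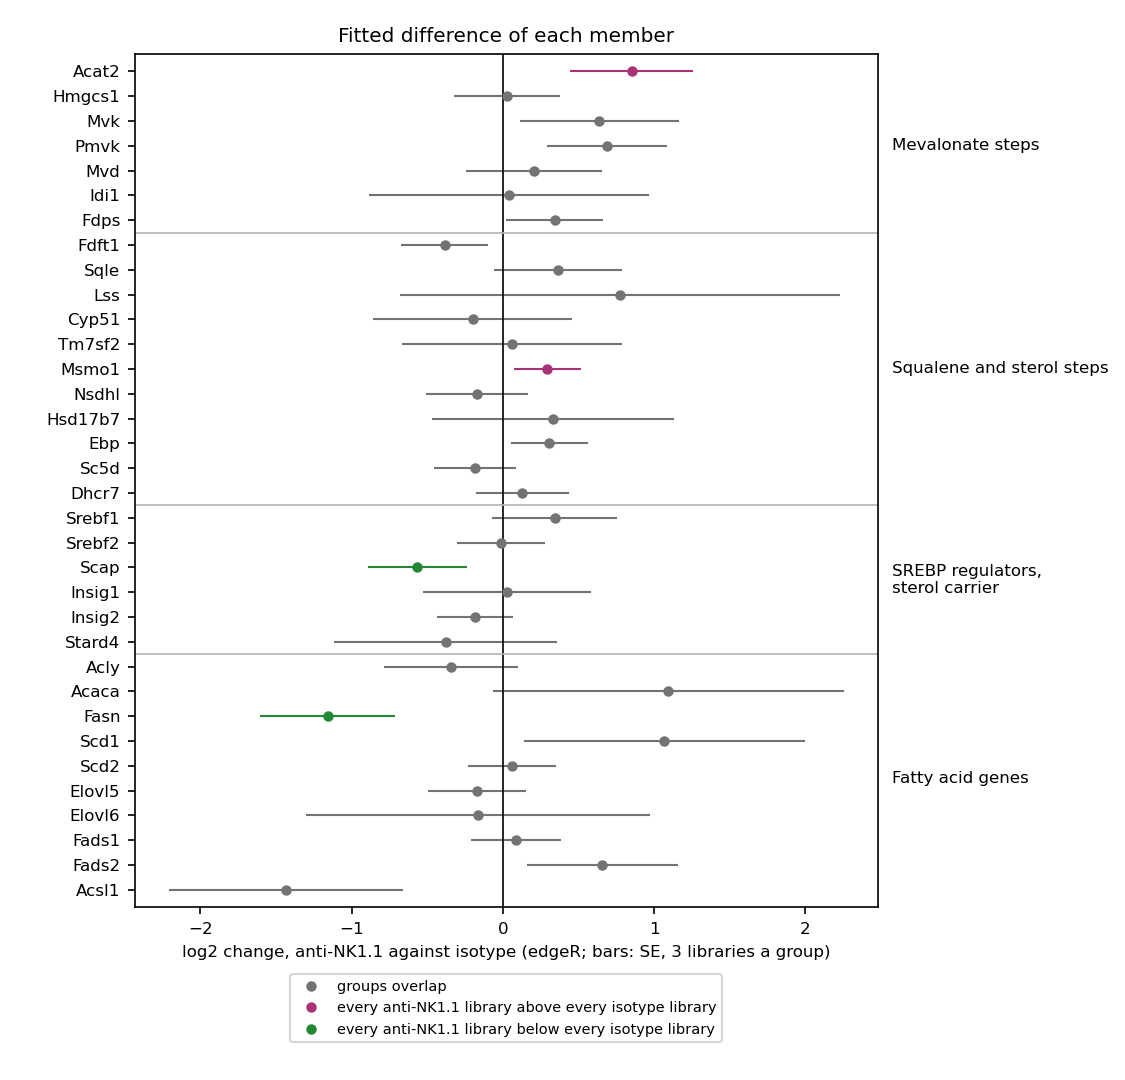
Fitted log2 change of each member, anti-NK1.1 against isotype, from edgeR (points) with its SE (bars), 3 libraries in each group. Values run from -1.43 for Acsl1 to 1.095 for Acaca, and no member passed the adjusted threshold.

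The mevalonate steps lay on the higher side of 0 throughout, by amounts within the error of each gene. All 7 of these enzymes had a log2 change above 0, from 0.03 to 0.85, with a median of 0.34, and none passed the test. Acat2, the cytosolic thiolase that joins acetyl-CoA units at the start of the pathway (chromosome 17, 12942890 to 12960747, GRCm38), was at 8.09, 7.19 and 9.72 CPM with isotype and 15.6, 14.98 and 14.5 CPM with anti-NK1.1. Every anti-NK1.1 library was above every isotype library, with 1.80 times the isotype mean. Its log2 change was 0.85 ± 0.40 (SE; 95% interval -0.06 to 1.76; edgeR adjusted p = 0.743). Acat2 has a neighbouring paralog, Acat3, between which similar reads could be split. Acat3 was at 14.4 to 24.5 CPM with isotype and 17.7 to 21.0 CPM with anti-NK1.1, and the sum of both genes overlapped between the groups, with 32.6 CPM in isotype library 1 and 32.2 CPM in anti-NK1.1 library 3.

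The phosphorylating kinases of the pathway had the next largest values. Pmvk, which encodes phosphomevalonate kinase, was at 10.9, 22.85 and 13.2 CPM with isotype and 30.9, 21.4 and 23.2 CPM with anti-NK1.1. Only isotype library 2 reached the anti-NK1.1 range, and the log2 change was 0.69 ± 0.40. With each library corrected for transcript length and GC content it was 0.26. Mvk, mevalonate kinase, was at 4.603, 13.98 and 9.48 CPM against 18.7, 9.20 and 15.8 CPM, a log2 change of 0.64 ± 0.53 with overlapping groups. With isotype library 1 left out it was 0.33, and with the length and GC correction 0.37.

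For Hmgcs1 and Idi1 the group means lay close together. Hmgcs1, the synthase that makes HMG-CoA and a standard readout of SREBP2 activity (chromosome 13, 119690379 to 119708260), was at 37.2, 28.9 and 23.4 CPM in isotype libraries. In anti-NK1.1 libraries it was at 22.2, 42.2 and 26.9 CPM, so that library 2 was the highest and library 1 the lowest of all 6. Its log2 change was 0.03 ± 0.35, with a 95% interval of -0.76 to 0.82. Idi1, the isomerase that makes the second isoprenoid building block, ranged from 1.80 to 2.15 CPM with isotype and from 1.204 to 3.48 CPM with anti-NK1.1. Mvd, the decarboxylase, had a log2 change of 0.21 ± 0.45, and Fdps, which makes farnesyl diphosphate, of 0.34 ± 0.32. Fdps shares 26.7% of its annotated exonic bases with Gm43738 on the same strand, so its count is uncertain. The higher side held for all 7 enzymes under the other scaling factors and DESeq2. Mvd lay lower with the length and GC correction (-0.26), Idi1 with the replicate block (-0.12), and Hmgcs1 and Idi1 with weighted limma (-0.05 and -0.16).

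Among the 11 squalene and sterol enzymes, 7 lay higher and 4 lower, with a median log2 change of 0.13, and none passed. Msmo1 encodes the methylsterol monooxygenase, which takes part in the removal of ring methyl groups (chromosome 8, 64718139 to 64733792). It was at 58.8, 74.7 and 73.6 CPM with isotype and 88.7, 79.7 and 85.8 CPM with anti-NK1.1. The groups did not overlap, and the difference was small, 1.23 times the isotype mean. Its log2 change was 0.30 ± 0.22 (95% interval -0.21 to 0.80; edgeR adjusted p = 0.778). Correcting for length and GC content gave 0.53. Ebp, the sterol isomerase, was the member with the highest level per transcript length. It was at 84.5, 96.4 and 89.0 CPM with isotype and 101, 86.5 and 147 CPM with anti-NK1.1, a log2 change of 0.31 ± 0.25. Library 3 accounted for most of the difference, since without it the value was 0.05.

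Fdft1, squalene synthase, commits farnesyl units to sterols. It was at 49.3, 44.9 and 40.9 CPM with isotype and 31.0, 44.2 and 28.3 CPM with anti-NK1.1, so that libraries 1 and 3 were below the isotype range and library 2 within it. Its log2 change was -0.38 ± 0.29, and without libraries 1 and 3 it was -0.02. Of its annotated exonic bases, 18.3% also belong to Ctsb on the opposite strand. The libraries do not mark strand, and Ctsb, a lysosomal protease, was far more abundant, at 3099 to 3714 CPM with isotype and 3874 to 4287 CPM with anti-NK1.1. Sqle, the squalene epoxidase and a rate-limiting enzyme, was at 11.995, 14.2 and 10.6 CPM against 10.05, 20.4 and 16.9 CPM, a log2 change of 0.36 ± 0.42. Library 1 was the lowest and library 2 the highest of all 6.

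The other sterol enzymes differed less between the groups than among the libraries of a group. Lss, the cyclase that forms the sterol ring, had 0 counts in isotype library 1 and 5.98 and 6.61 CPM in libraries 2 and 3, against 0.752, 13.9 and 6.86 CPM. Its log2 change of 0.77 ± 1.45 turned to -0.14 without anti-NK1.1 library 2. Cyp51, the lanosterol demethylase, ranged from 5.89 to 19.998 CPM with isotype and from 3.99 to 21.0 CPM with anti-NK1.1, and Hsd17b7, a ketosteroid reductase, from 1.92 to 7.07 and from 2.22 to 7.05 CPM. Nsdhl and Sc5d had log2 changes of -0.17 ± 0.34 and -0.19 ± 0.27. Dhcr7, which makes the last reduction to cholesterol, had 0.13 ± 0.31, and the sterol reductase Tm7sf2 0.06 ± 0.73.

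The SREBP transcription factors themselves did not separate the groups. Srebf2, the main driver of the sterol genes (chromosome 15, 82147181 to 82205379), was at 34.5, 41.7 and 52.2 CPM with isotype and 52.1, 38.2 and 36.8 CPM with anti-NK1.1. All 3 anti-NK1.1 values lay within the isotype range, and the log2 change was -0.01 ± 0.29 (95% interval -0.67 to 0.64). Srebf1, the driver of lipogenic genes (chromosome 11, 60199089 to 60222581), was at 15.6, 36.3 and 22.3 CPM against 23.0, 44.7 and 26.2 CPM. Its highest value was in anti-NK1.1 library 2, and its log2 change was 0.34 ± 0.41, or -0.01 without that library. These counts do not report how much SREBP protein was cleaved and active.

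Scap lay lower in every anti-NK1.1 library. Scap encodes the SREBP escort (chromosome 9, 110333288 to 110384950) and was at 31.2, 40.3 and 36.2 CPM with isotype and 16.7, 25.3 and 30.8 CPM with anti-NK1.1, 0.676 times the isotype mean. The gap between the groups was narrow, between 31.2 and 30.8 CPM. Its log2 change was -0.57 ± 0.33 (95% interval -1.30 to 0.17; edgeR adjusted p = 0.743), and -0.36 without anti-NK1.1 library 1. The opposite-strand gene 5830462I19Rik shares 13.2% of its exonic bases.

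The retention proteins differed from each other in how far the libraries spread. Insig1, itself an SREBP target, was at 13.9, 10.3 and 12.1 CPM with isotype and 22.1, 9.78 and 5.18 CPM with anti-NK1.1. Anti-NK1.1 libraries thus held both the highest and the lowest value, and the log2 change was 0.03 ± 0.55. Insig2 was at 61.1, 53.1 and 44.0 CPM against 47.1, 47.4 and 44.6 CPM, all within the isotype range, with a log2 change of -0.19 ± 0.25. Per transcript length, Insig2 was 3.64 to 5.15 times as abundant as Insig1 in isotype libraries and 2.13, 4.84 and 8.62 times in anti-NK1.1 libraries 1 to 3. Stard4, a carrier that moves sterol between membranes, ranged from 2.76 to 11.5 CPM with isotype and from 2.26 to 9.96 CPM with anti-NK1.1.

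Of the 10 fatty acid genes 5 lay higher and 5 lower, and this group held the members with the largest differences in both directions. Fasn, which encodes the multi-enzyme fatty acid synthase (chromosome 11, 120805846 to 120824547), was at 15.4, 12.3 and 11.97 CPM with isotype and 6.70, 5.81 and 5.26 CPM with anti-NK1.1. The groups were clearly apart, with 13.2 ± 1.89 CPM against 5.92 ± 0.725 CPM (SD over 3 libraries each), 0.448 times the isotype mean. The log2 change was -1.16 ± 0.45 (95% interval -2.16 to -0.16), with an unadjusted p of 0.0276 and an edgeR adjusted p of 0.727. It lay between -1.66 and -1.02 under all 15 alternative settings, and the lowest of these came with the correction for transcript length and GC content. None of them brought it past the adjusted threshold.

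The enzymes upstream of FASN varied widely within each group. Acly, which splits citrate to cytosolic acetyl-CoA, ranged from 65.2 to 150 CPM with isotype and from 40.1 to 129 CPM with anti-NK1.1 (log2 change -0.34 ± 0.45). Acaca, which encodes ACC1 and makes malonyl-CoA, was scarce, at 0.195 to 1.78 CPM with isotype and 1.16 to 4.10 CPM with anti-NK1.1. Its log2 change of 1.095 ± 1.16 had an interval of -1.51 to 3.70.

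Acsl1, an acyl-CoA synthetase that activates long-chain fatty acids (chromosome 8, 46471037 to 46536051), had the lowest log2 change of the members. It was at 55.7, 39.4 and 84.4 CPM with isotype and 5.64, 53.8 and 6.90 CPM with anti-NK1.1. Libraries 1 and 3 were far below the isotype range while library 2 was inside it, and the log2 change was -1.43 ± 0.78 (edgeR adjusted p = 0.743). Without anti-NK1.1 library 2 it was -3.26, and edgeR gave an adjusted p of 0.0405. In that setting 129 of 14990 tested genes were called, 117 of them lower. Without libraries 1 and 3 the log2 change of Acsl1 was -0.15. Acsl1 is also expressed by neutrophils and monocytes. The sum of their 14 markers, most of it from S100a8, S100a9 and Ngp, was lowest in anti-NK1.1 libraries 1 and 2 and highest in library 3. For the single markers Ccr2 and F13a1, the libraries within each group ran in the same order as for Acsl1. Across the groups the order differed, since Acsl1 was higher in anti-NK1.1 library 2 than in isotype library 2, and these markers were lower. Ccr2, a monocyte chemokine receptor, was at 137, 84.6 and 162 CPM with isotype and 18.9, 63.8 and 37.4 CPM with anti-NK1.1. F13a1, listed as a border macrophage marker, was at 159, 133 and 260 CPM against 24.5, 108 and 37.4 CPM. Ccr2 and F13a1 were both highest in isotype library 3 and lowest in anti-NK1.1 library 1, as Acsl1 was. Other markers of these lists differed from them. Of 8 border macrophage markers 6 lay higher with anti-NK1.1, and Ly6c2, of the neutrophil and monocyte list, was highest in anti-NK1.1 library 3, at 838 CPM. The part of these cells in the result was not tested.

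The desaturases and elongases showed mostly spread within groups. Scd2, the main stearoyl-CoA desaturase of the brain (chromosome 19, 44293674 to 44306864), was at 54.8, 67.5 and 61.0 CPM with isotype and 54.0, 89.3 and 47.7 CPM with anti-NK1.1. Library 2 was above the isotype range and libraries 1 and 3 below it, with a log2 change of 0.06 ± 0.29 (95% interval -0.60 to 0.72). Its paralog Scd1 was at 0.670, 2.29 and 5.80 CPM against 3.61, 11.9 and 2.91 CPM, a log2 change of 1.07 ± 0.93. Both genes share coding sequence, so reads could be split between them, and their sum was 55.5 to 69.8 CPM with isotype and 50.6 to 101 CPM with anti-NK1.1. Per transcript length, Scd2 was 9.31 to 72.5 times as abundant as Scd1 in isotype and 6.67 to 14.5 times in anti-NK1.1 libraries.

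Fads2, the first desaturase of polyunsaturated fatty acid synthesis, was at 9.15, 9.58 and 4.28 CPM with isotype and 14.8, 12.003 and 9.53 CPM with anti-NK1.1. Only anti-NK1.1 library 3 lay inside the isotype range, just under isotype library 2, and the log2 change was 0.66 ± 0.50. Without isotype library 3 it was 0.37. Fads1, the next desaturase, was almost constant in isotype libraries, at 77.4 to 81.7 CPM, and spread from 54.9 to 119 CPM with anti-NK1.1 (log2 change 0.09 ± 0.30). The elongases Elovl5 and Elovl6 had log2 changes of -0.17 ± 0.32 and -0.16 ± 1.14, with Elovl6 at 0.372 to 6.08 CPM with isotype and 0.558 to 5.40 CPM with anti-NK1.1.

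Promoter sequences are shown for the 4 members whose groups did not overlap and for Hmgcs1, which holds the letters of a sterol regulatory element. They come from RefSeq (GRCm38.p6), 5′ to 3′ on the gene's strand, and stop before the first annotated exon. Capitals mark the letters CCAAT, searched on both strands (ATTGG on the other), and TCACCCCAC, the core of the sterol regulatory element, also searched on both strands. CCAAT is the box bound by the factor NF-Y, which is known to act beside SREBPs. For Msmo1 the window lies mostly in an exon of another annotated transcript, so only 29 bases around each of its 3 CCAAT boxes are given.
Fasn, chr11:120824548-120824797, minus strand: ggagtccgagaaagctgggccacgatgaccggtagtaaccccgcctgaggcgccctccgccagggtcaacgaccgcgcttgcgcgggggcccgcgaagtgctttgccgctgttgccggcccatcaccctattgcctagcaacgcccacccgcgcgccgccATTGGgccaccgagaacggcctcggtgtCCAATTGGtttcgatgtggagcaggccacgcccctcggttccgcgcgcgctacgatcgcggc
Hmgcs1, chr13:119690101-119690350, plus strand: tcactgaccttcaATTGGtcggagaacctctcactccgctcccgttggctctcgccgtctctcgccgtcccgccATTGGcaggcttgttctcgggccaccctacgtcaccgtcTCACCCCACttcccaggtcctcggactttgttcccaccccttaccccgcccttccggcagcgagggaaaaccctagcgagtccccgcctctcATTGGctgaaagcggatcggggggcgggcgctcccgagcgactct
Scap, chr9:110333038-110333287, plus strand: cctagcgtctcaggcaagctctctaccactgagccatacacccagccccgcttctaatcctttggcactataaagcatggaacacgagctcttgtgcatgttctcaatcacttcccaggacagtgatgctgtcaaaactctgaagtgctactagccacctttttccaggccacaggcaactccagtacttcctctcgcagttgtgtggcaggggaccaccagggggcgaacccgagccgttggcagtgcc
Acat2, chr17:12960748-12960975, minus strand: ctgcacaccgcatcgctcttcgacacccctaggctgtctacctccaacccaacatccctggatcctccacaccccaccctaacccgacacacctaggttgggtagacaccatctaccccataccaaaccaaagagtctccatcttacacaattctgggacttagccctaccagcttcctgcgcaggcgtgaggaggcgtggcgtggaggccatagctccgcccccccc
Msmo1, chr8:64733722-64733750, minus strand: ccatccgcgcagCCAATgactggcgccgc
Msmo1, chr8:64733658-64733686, minus strand: ccttagcacggaCCAATcactgcacggcg
Msmo1, chr8:64733617-64733645, minus strand: gagtggggcggaCCAATtacgacaggcga

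The table held a promoter for 27 of the 34 members, and Fdps, Fdft1, Sqle, Stard4, Scd1, Scd2 and Fads1 had none. In the 250 bases before a start, CCAAT was found in 21 of the 27 members (77.8%) and in 37.5% of all 27025 genes with a promoter. TCACCCCAC was found in 2 members, Hmgcs1 and Acsl1, against 0.555% of all genes. In Fasn, boxes began 90, 62 and 59 bases before the start, the last pair overlapping. In Hmgcs1 they began 237, 176 and 45 bases before the start, with the sterol element letters at 137. The windows of Scap and Acat2 held neither set of letters, which says only that these exact letters are not in these windows. Members with a CCAAT box included both higher and lower members, such as Msmo1 and Fasn.

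The anti-NK1.1 libraries differed among themselves, and not in the members alone. Over all tested genes, the rank correlation with the isotype libraries was 0.86 to 0.89 for anti-NK1.1 library 1. It was 0.92 to 0.95 for library 2 and 0.89 to 0.93 for library 3. The counts of members that follow were not made over all tested genes, so they are not shown to be particular to the members. Of the 34 members, 9 had their highest value of all 6 libraries in anti-NK1.1 library 1, 9 in library 2 and 2 in library 3, and 8, 2 and 6 had their lowest there. Library 1 was within the isotype range for 12 members, library 2 for 17 and library 3 for 16. The 9 members highest in library 2 were Hmgcs1, Idi1, Sqle, Lss, Cyp51, Srebf1, Scd1, Scd2 and Fads1. For 7 of these (all but Sqle and Lss) library 2 was above the isotype range while libraries 1 and 3 were not. The reverse, libraries 1 and 3 above the isotype range and library 2 not, was seen for 4 members, Mvk, Pmvk, Ebp and Dhcr7. All 3 anti-NK1.1 libraries lay within the isotype range for 6 members, Tm7sf2, Hsd17b7, Srebf2, Insig2, Elovl5 and Elovl6. Without anti-NK1.1 library 2 the median log2 change of the members was -0.06, and 8 members turned to the other sign, among them Hmgcs1 (-0.28), Scd2 (-0.27) and Fads1 (-0.25). Isotype library 1 was the lowest of all 6 libraries for 11 members.

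**Figure D3:**
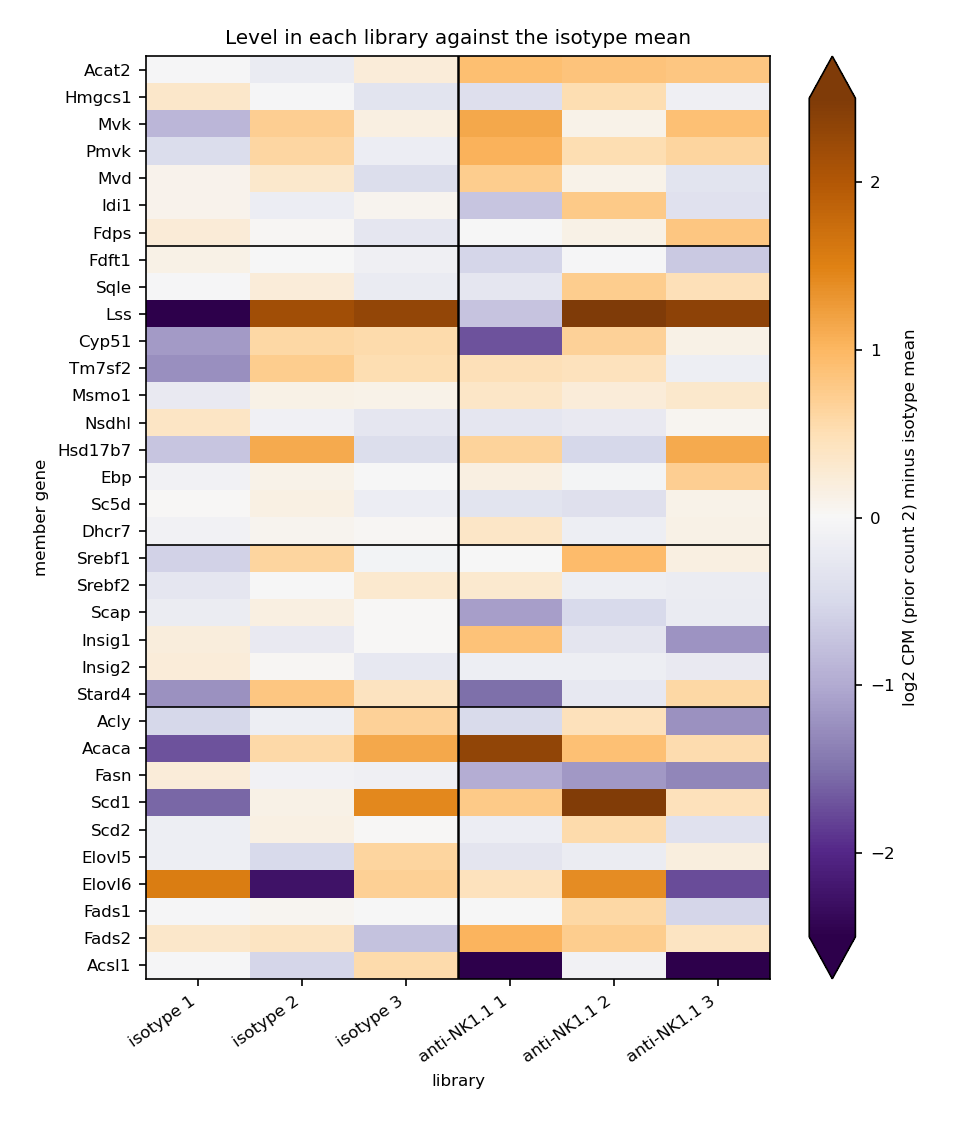
Level of each member (rows, by role) in each library (columns) as log2 CPM (prior count 2) minus the isotype mean of log2 CPM; orange is higher, purple lower, and the scale ends at 2.5 in either direction. Fasn is purple and Acat2 orange in all 3 anti-NK1.1 libraries, Acsl1 is dark purple in anti-NK1.1 libraries 1 and 3 alone, and the Lss row is set by isotype library 1, which had 0 counts.

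Transcript length moved with these differences. Over all tested genes, the rank correlation between a gene's deviation in a library and its longest annotated transcript was 0.00, 0.02 and 0.32 for isotype libraries 1 to 3. It was -0.15, 0.24 and -0.30 for anti-NK1.1 libraries 1 to 3, so long transcripts were relatively scarce in anti-NK1.1 libraries 1 and 3. Of the 17 longer members, 10 lay lower (median log2 change -0.17), and of the 17 shorter members 3 lay lower (median 0.13). Across the 34 members the rank correlation of log2 change with length was -0.21, and over all tested genes it was also -0.21; these are descriptions over genes that share the same libraries. Fasn has the longest transcript of the members, at 10050 nt, and Acaca, at 9513 nt, the next longest.

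**Figure D4:**
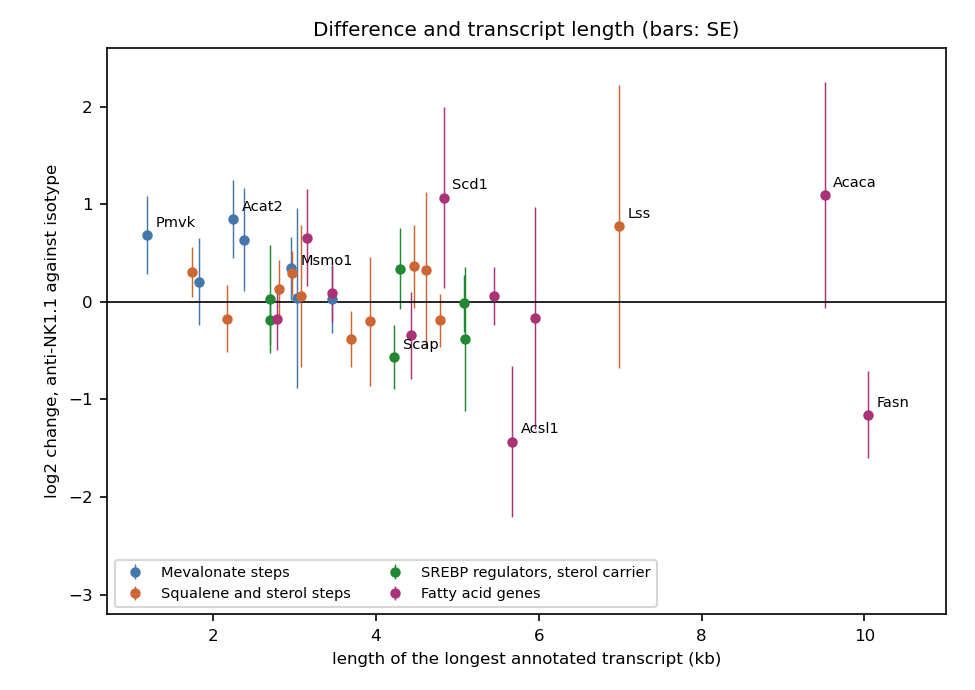
Log2 change of each member, anti-NK1.1 against isotype (points; bars are the SE), against the length of its longest annotated transcript in kb, coloured by role. The shortest members, such as Pmvk, lie mostly above 0, and Fasn and Acaca, the longest at 10050 and 9513 nt, lie on opposite sides.

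Compared per transcript length in the isotype group, Ebp was the most abundant member, at 51.6 CPM per kb. It was followed by Elovl5 (26.2), Msmo1 (23.3), Fads1 (23.0) and Acly (22.6), and these 4 lie close to each other given a spread such as that of Elovl5, at 49.0 to 107 CPM. The least abundant were Acaca (0.110), Elovl6 (0.547), Lss (0.600), Scd1 (0.605) and Idi1 (0.668 CPM per kb). The sterol enzymes spanned most of this range, with Fdft1 at 12.2, Cyp51 at 3.83, Sqle at 2.74, Tm7sf2 at 1.44 and Hsd17b7 at 0.822 CPM per kb.

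Genes of the same pathways outside the member list gave no call either. Of 34 such genes 33 were tested, 14 lay higher and 19 lower, and 0 passed with edgeR or DESeq2. At an unadjusted p under 0.05 there were 4, all lower (background for lower genes 3.8%). The groups did not overlap for those 4 alone, or 12.1%, against a background of 15.3% of all tested genes (7.59% for lower genes). Lbr, the lamin B receptor, which also acts as a sterol reductase (chromosome 1, 181815335 to 181843046), was at 241, 205 and 219 CPM with isotype and 94.1, 107 and 151 CPM with anti-NK1.1. All 3 anti-NK1.1 libraries were well below the isotype range, a log2 change of -0.92 ± 0.24 (edgeR adjusted p = 0.727). Lbr is also abundant in neutrophils. The sum of the neutrophil and monocyte markers was highest in anti-NK1.1 library 3, while all 14 of them had a fitted log2 change below 0. The part of these cells in the result was not tested. Acsl4, an acyl-CoA synthetase for arachidonic acid (chromosome X, 142317993 to 142390535), was at 43.3, 33.5 and 49.8 CPM against 9.29, 26.75 and 10.1 CPM, a log2 change of -1.45 ± 0.45. As for Acsl1, libraries 1 and 3 were the lowest.

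The proteases that release SREBP after SCAP has carried it to the Golgi were on the same side as Scap. Mbtps2 (chromosome X, 157535371 to 157598715) was at 23.6, 11.6 and 10.1 CPM with isotype and 5.38, 8.002 and 4.50 CPM with anti-NK1.1, with no overlap and a log2 change of -1.34 ± 0.52 (edgeR adjusted p = 0.727). Mbtps1 had a log2 change of -0.59 ± 0.52 with overlapping groups.

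Markers of several other brain cells also lay mostly higher in the anti-NK1.1 libraries. All 12 neuron markers lay higher, with a summed level of 48.8 to 172 CPM with isotype and 229 to 686 CPM with anti-NK1.1. Of 13 tested oligodendrocyte markers 12 lay higher, and 5 were higher without overlap (background for higher genes 7.73%), with a summed level of 310 to 421 CPM with isotype and 792 to 930 CPM with anti-NK1.1. No marker of that list was at 0 in a whole group, though Mog and Opalin had 0 counts in isotype library 1. Of 12 astrocyte markers 8 lay higher and 4 lower, with overlapping sums of 450 to 964 CPM against 737 to 1435 CPM. Endothelial and pericyte markers lay higher for 8 of 10, with sums of 68.0 to 85.9 CPM against 82.8 to 194 CPM, and border macrophage markers for 6 of 8, with sums of 192 to 355 CPM against 159 to 257 CPM. None of these markers passed edgeR's adjusted threshold. DESeq2 called 4 neuron, 3 border macrophage, 2 oligodendrocyte and 1 astrocyte markers, all higher (background 0.825%). Of the 14 neutrophil and monocyte markers it called 2, both lower. The summed mevalonate enzymes were at 94.2 to 123 CPM with isotype and 140 to 150 CPM with anti-NK1.1. Sums of the other role groups overlapped. They were 313 to 367 against 332 to 409 CPM for the squalene and sterol enzymes. For the SREBP regulators and sterol carrier they were 159 to 193 against 154 to 171 CPM, and for the fatty acid genes 347 to 509 against 247 to 489 CPM. No background for such sums was computed, and the part of these other cells in the mevalonate difference was not tested.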

How the data were processed

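The authors deposited 1 table of 6 libraries. It is named as normalized, but the values the authors deposited are raw read counts per gene, made from aligned reads with no scaling seen: whole numbers with different totals, with rows for reads in no feature (53.3% to 57.4% of all reads) and ambiguous reads. Per the labels' protocols, cDNA was made with SMART-seq v4 and Nextera XT and sequenced as 75 bp single reads. Reads from such libraries carry neither molecular identifiers nor strand, so counting floors cover counting error only. Per the submitters' processing notes, the tools included STAR 2.5.3a, Cufflinks 2.0 and DESeq2 1.1 with build mm10. No source used here names the counting program or annotation.

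Left out were 26 rows with a date in place of the symbol and 2 rows of totals. Genes passing filterByExpr (14520, all 34 members among them) were scaled with TMM. The two-sided quasi-likelihood test of edgeR 4.0.16 (R 4.3.3) had no covariate beside the group. Its p-values were adjusted by Benjamini-Hochberg over all of those genes, and calls were made under 0.05. The SE of a log2 change is its size divided by the square root of F. An exact permutation test of 3 against 3 libraries was not used, since it cannot reach that threshold. Alternatives were DESeq2 1.42.0, limma 3.58.1 with sample weights, other scaling factors and filters, offsets for transcript length and GC content (GENCODE vM21), a replicate block, and left-out libraries. Members and lists were chosen with earlier results of these data known. All members are named, with values per library for the 10 of smallest p and 10 set genes (Srebf1, Srebf2, Scap, Insig1, Insig2, Hmgcs1, Sqle, Fasn, Scd1, Scd2). Other pathway genes named were the 3 of smallest p; 3 further genes set by the rule are not reported here. Mbtps1, Acat3, Ctsb, Ccr2, F13a1, Ly6c2 and Ncr1 were added after their values were seen.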

Additional observations from a re-analysis of the deposited data

How the results depend on the processing

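No member was called by edgeR, DESeq2, weighted limma, other scaling factors or filters, the replicate block, or the length and GC correction. The 1 call came without anti-NK1.1 library 2, for Acsl1. Over all genes, DESeq2 called 132 and weighted limma 4, and leaving out 1 library gave 0 to 129 calls over all genes, 0 to 1 among members, and a median log2 change of the members of -0.0592 to 0.167. Without anti-NK1.1 libraries 1 and 3 the median was 0.16, with the lone anti-NK1.1 library assumed to vary like the isotype libraries. The replicate numbers did not pair the libraries (correlations of same-numbered deviations 0.05, 0.03 and -0.00), and not every library correlated best with its own number. With the replicate block 0 genes were called, and Idi1 and Insig1 turned to -0.12 and -0.20. Under 15 alternatives 13 members kept their sign, among them Fasn, Scap, Acat2 and Msmo1. The other 21 changed sign at least once, at adjusted p of 0.649 or more, and the cause was not tested. Srebf2 turned to 0.0124 with DESeq2, 0.0146 with relative log expression factors, 0.0717 with upper-quartile factors, 0.0281 when genes averaging under 5 CPM were dropped, and 0.0015 with weighted limma. Weighted limma also gave Hmgcs1 -0.0519, Idi1 -0.16, Tm7sf2 -0.0456, Insig1 -0.14, Scd2 -0.13, Fads1 -0.0998, Elovl5 0.0788 and Elovl6 0.66. The length and GC correction gave Mvd -0.26, Sc5d 0.24, Stard4 0.0340 and Elovl5 0.0069. Without anti-NK1.1 libraries 1 and 3 the values were Mvk -0.0188, Cyp51 0.49, Hsd17b7 -0.76, Ebp -0.0507, Dhcr7 -0.15, Insig1 -0.30, Acly 0.38 and Elovl6 0.74. Leaving out 1 library gave ranges that crossed 0 for 18 members. They were -0.28 to 0.23 for Hmgcs1, -0.55 to 0.32 for Idi1, -0.12 to 0.42 for Mvd, -0.14 to 1.31 for Lss, -0.72 to 0.23 for Cyp51, -0.33 to 0.40 for Tm7sf2, -0.30 to 0.0622 for Nsdhl, -0.0650 to 1.15 for Hsd17b7 and -0.0022 to 0.25 for Dhcr7. For the regulators they were -0.0083 to 0.73 for Srebf1, -0.19 to 0.15 for Srebf2, -0.70 to 0.39 for Insig1 and -0.99 to 0.0380 for Stard4. For the fatty acid genes they were -0.90 to 0.0753 for Acly, -0.27 to 0.23 for Scd2, -0.39 to 0.21 for Elovl5, -0.98 to 0.65 for Elovl6 and -0.25 to 0.32 for Fads1. Depth limits the scarce members most, such as Acaca, with 7 to 109 counts per library.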
